A study of Mus musculus with 10 samples.

Results

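The Cyp3a cluster was examined in livers of mice that had lost the histone variant H3.3 in hepatocytes. Its 9 members, Cyp3a11, Cyp3a13, Cyp3a16, Cyp3a25, Cyp3a41a, Cyp3a41b, Cyp3a44, Cyp3a57 and Cyp3a59, were found by symbol among the 55421 gene identifiers of the deposited count table. Poly(A) RNA of whole liver was sequenced from 10 male mice. The 4 KO livers came from H3f3a fl/fl H3f3b fl/fl mice that were given AAV8 Tbg-Cre, a virus that expresses Cre recombinase from the hepatocyte promoter Tbg. The 3 WT Cre controls were wildtype mice with the same virus, and the 3 MCS controls were floxed mice given AAV8 Tbg-MCS, which carries no Cre. All animals were injected at 6 months of age and sampled 3 weeks later. In the labels, the genotype entry of floxed mice names HIRA while the sample titles name the H3.3 genes, and the groups here follow the titles.

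CYP3A enzymes are haem-containing monooxygenases of the endoplasmic reticulum. They oxidize drugs, steroids and bile acids in the liver and receive their electrons from the reductase Por. The nuclear receptors PXR (Nr1i2) and CAR (Nr1i3) induce them in response to foreign compounds. Several mouse members, among them Cyp3a16, Cyp3a41 and Cyp3a44, are known as genes of the female or the immature liver, whereas Cyp3a11 is the abundant form in adult males.

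Loss of the targeted genes was seen in every KO liver. H3f3a was at 62.1 ± 1.59 CPM (SD, n = 6) in controls and 17.4 ± 1.66 CPM (SD, n = 4) in KO. H3f3b was at 160 ± 24.1 CPM (SD, n = 6) and 50.5 ± 7.40 CPM (SD, n = 4). CPM are counts scaled to a common library size after TMM normalization. In whole liver, fewer cells of a type and less RNA per cell cannot be told apart, and p-values measure the spread between these livers. Total counts ranged from 14998426 (KO 1) to 26096141 (MCS 1).

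Of the 9 genes, 8 lie in 768 kb of mouse chromosome 5 (mm10, chr5:145345279-146113287). From the low to the high coordinate they are Cyp3a57 (plus strand, chr5:145345279-145390926), Cyp3a16 (minus, chr5:145436309-145469723), Cyp3a41b (minus, chr5:145558664-145584730), Cyp3a41a (minus, chr5:145694049-145720136), Cyp3a44 (minus, chr5:145773983-145805874), Cyp3a11 (minus, chr5:145854426-145879964), Cyp3a25 (minus, chr5:145977194-146009618) and Cyp3a59 (plus, chr5:146079257-146113287). None of these 8 overlaps another annotated gene. Cyp3a13 (minus, chr5:137892932-137921619) lies 7.42 Mb away and overlaps Gm15502 on the same strand.

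By sequence, the cluster falls into a pair of subfamilies. Cyp3a11, Cyp3a16, Cyp3a41a, Cyp3a41b and Cyp3a44 are 92.4% to 99.9% identical to each other over the coding sequence (10 pairs). Cyp3a25, Cyp3a57 and Cyp3a59 are 93.9% to 97.5% identical (3 pairs). Between the subfamilies, identity is 74.5% to 76.1% (15 pairs), and Cyp3a13 is 75.2% to 76.8% identical to the members of either. Promoters, taken as the 250 bases before the RefSeq start, divide in the same way. They are 71.7% to 99.6% identical in the first subfamily, 88.9% to 94.8% in the second and 49.1% to 53.6% between them.

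Promoters are shown here for the abundant and the most changed member of the first subfamily, for Cyp3a44, and for a pair of the second. They are RefSeq sequences of build GRCm38.p6 (all 9 members had an entry), 5′ to 3′ on the strand of the gene. Capitals mark TGTTTAC (the core of FOXA sites), CAAAGTCCA (an HNF4A site) and AGGTCA (a nuclear receptor half-site) on either strand. For Cyp3a11 the 140 bases before the GENCODE start (chr5:145879965-145880104) are given, since the other 110 bases of its window lie in the first exon of that annotation. The others are Cyp3a41a at chr5:145720137-145720386, Cyp3a44 at chr5:145805875-145806124 and Cyp3a25 at chr5:146009619-146009868 (all minus strand), and Cyp3a59 at chr5:146079008-146079257 (plus strand).
Cyp3a11: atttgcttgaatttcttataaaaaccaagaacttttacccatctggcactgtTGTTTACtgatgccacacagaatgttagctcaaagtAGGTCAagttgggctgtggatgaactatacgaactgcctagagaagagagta
Cyp3a41a: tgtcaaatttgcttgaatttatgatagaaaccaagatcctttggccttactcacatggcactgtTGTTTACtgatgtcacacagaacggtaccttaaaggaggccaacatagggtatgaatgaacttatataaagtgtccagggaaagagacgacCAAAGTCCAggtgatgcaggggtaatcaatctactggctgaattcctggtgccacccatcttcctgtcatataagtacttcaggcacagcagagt
Cyp3a44: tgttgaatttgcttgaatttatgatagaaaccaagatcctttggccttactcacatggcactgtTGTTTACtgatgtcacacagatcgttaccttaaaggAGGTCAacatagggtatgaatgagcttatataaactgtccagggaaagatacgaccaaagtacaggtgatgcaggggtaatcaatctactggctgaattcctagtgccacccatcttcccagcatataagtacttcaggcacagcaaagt
Cyp3a25: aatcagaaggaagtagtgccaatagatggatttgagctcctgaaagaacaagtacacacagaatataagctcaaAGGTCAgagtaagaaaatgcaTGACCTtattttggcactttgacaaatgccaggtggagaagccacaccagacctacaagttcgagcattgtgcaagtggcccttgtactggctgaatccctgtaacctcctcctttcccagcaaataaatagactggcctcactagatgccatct
Cyp3a59: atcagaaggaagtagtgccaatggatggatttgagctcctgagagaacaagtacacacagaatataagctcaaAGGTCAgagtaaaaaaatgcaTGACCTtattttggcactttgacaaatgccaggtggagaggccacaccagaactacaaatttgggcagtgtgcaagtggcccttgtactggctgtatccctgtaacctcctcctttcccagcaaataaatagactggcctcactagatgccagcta

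All 5 promoters of the first subfamily held TGTTTAC, at positions -198 (Cyp3a11), -190 (Cyp3a16) and -186 (Cyp3a41a, Cyp3a41b, Cyp3a44) from the start, and 3.17% of the 32851 promoters in the RefSeq table did. CAAAGTCCA was in 4 of these 5, not in Cyp3a44, and in 0.384% of all promoters. In Cyp3a11 it began at -109 from the RefSeq start, beyond the printed bases. Neither was in Cyp3a25, Cyp3a57, Cyp3a59 or Cyp3a13. Each of Cyp3a25, Cyp3a57 and Cyp3a59 had 2 AGGTCA matches, 1 on each strand, and Cyp3a11 and Cyp3a44 had 1 each, against 14% of all promoters with at least 1. AGTTCA (11.8% of all promoters) was found in Cyp3a11, Cyp3a41a and Cyp3a41b. The STAT5 letters TTCNNNGAA (7.02%) were found in no member. AGGTCA and AGTTCA overlapped no other match. These letters were chosen with the sequences in view, promoters of one subfamily share most of their sequence, and a match is no proof of binding.

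Members differ in how far their reads can be told apart. Of the stretches of 50 bases in the Cyp3a41a transcript, 98.6% also occur in another Cyp3a gene, nearly all of them in Cyp3a41b (93.7%). For Cyp3a41b the share is 93.5%, and at 150 bases it is still 82.9% for Cyp3a41a and 82.7% for Cyp3a41b. At 50 bases the share is 28.0% for Cyp3a59, 26.8% for Cyp3a25, 26.5% for Cyp3a44, 14.8% for Cyp3a11, 10.7% for Cyp3a16, 8.88% for Cyp3a57 and 0% for Cyp3a13. At 150 bases it is under 1% for all but the Cyp3a41 pair (at most 0.706%, in Cyp3a59). Read length is not stated, nor is how reads matching several places were counted. The division of counts between Cyp3a41a and Cyp3a41b is therefore uncertain, and so are low counts of any gene with an abundant relative.

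The question addressed was how the Cyp3a genes were expressed after H3.3 loss. In edgeR's quasi-likelihood test of KO against the 6 controls, 5 of the 9 genes were higher at an adjusted p under 0.05. These were Cyp3a11, Cyp3a16, Cyp3a41a, Cyp3a41b and Cyp3a44, the whole first subfamily. Over all 22449 genes tested, 19.7% were called higher and 16.6% lower. Cyp3a59 was the 1 gene called lower, and Cyp3a13, Cyp3a25 and Cyp3a57 were not called. All 9 genes passed the filter of 10 summed counts. The 5 genes that rose are neighbours in the middle of the cluster, and the genes of the second subfamily lie at its ends, as the map of changes along the cluster shows.

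**Figure D1:**
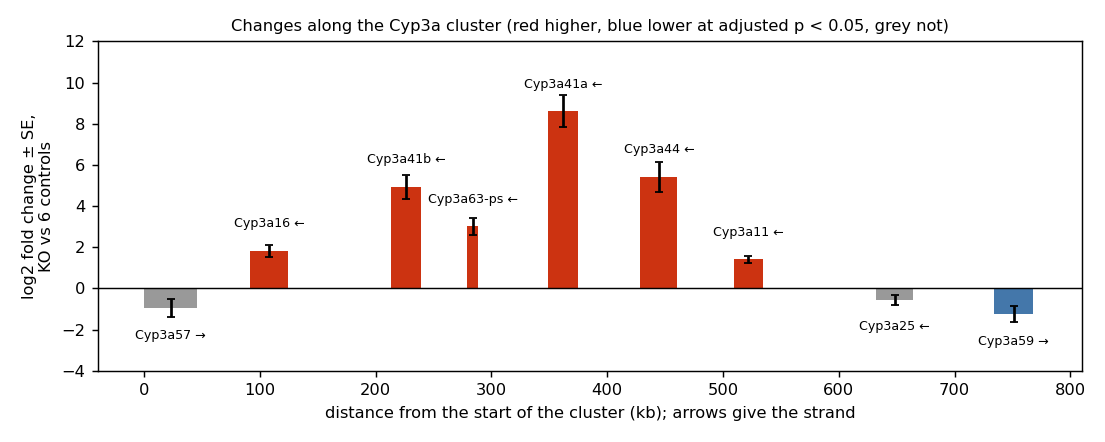
Log2 fold change of KO against 6 controls (y axis, bars with SE from edgeR) at the place of each gene in the cluster (x axis, distance from its start in kb; bar width is gene length). The 5 genes that rose and the pseudogene Cyp3a63-ps fill the middle, and Cyp3a57, Cyp3a25 and Cyp3a59, with fitted changes of -0.95, -0.54 and -1.26, lie at the ends.

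Cyp3a11, the major CYP3A enzyme of mouse liver, had 4659, 4021 and 4874 CPM in the WT Cre controls. It had 3059, 2813 and 3027 CPM in the MCS controls. In KO 1 to 4 it had 10096, 9992, 10825 and 9092 CPM. Every KO liver was thus above every control, and the MCS controls were below the WT Cre controls. The KO mean was 2.67 times the control mean, with a log2 fold change of 1.42 (± 0.171 SE, adjusted p of 5.22e-05 in edgeR). All 4 KO values lay above all 6 control values for 5 members, again the first subfamily, and for 12.5% of all genes tested. They lay below all controls for 0 members and for 12% of all genes.

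Cyp3a41a is a member known from female liver. It had 4, 2 and 4 counts in the WT Cre controls and 2, 1 and 1 in the MCS controls. The 4 KO livers had 98, 974, 1815 and 1213 counts, or 6.38, 38.5, 76.5 and 46.4 CPM. The gene was thus close to 0 in all controls and present in all KO livers, with KO 1 the lowest of these. Summed over livers there were 4100 counts in KO against 14 in controls, a ratio of 443 per scaled library (exact 95% interval 264 to 812, counting error only). Against the MCS controls alone, which were all at 3 counts or fewer, the ratio was 734 (286.6 to 2697). The fitted log2 fold change against 6 controls was 8.61 (± 0.764 SE, adjusted p of 4.87e-05 in edgeR), and its size depends on the prior count.

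Cyp3a41b, the near-identical copy, had 2 to 8 counts in the controls. KO livers 1 to 4 had 13, 176, 258 and 193 counts. The livers kept the same order as for Cyp3a41a. Its log2 fold change was 4.92 (± 0.593 SE, adjusted p of 0.000125 in edgeR). With the counts of the pair added into 1 feature, the log2 fold change was 7.25 (± 0.684 SE, adjusted p of 6.92e-05 in edgeR), which does not depend on how reads were divided between them.

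Cyp3a44, another member known from female liver, had 8, 7 and 13 counts in the WT Cre controls and 7, 3 and 7 in the MCS controls. In KO 1 to 4 it had 36, 426, 753 and 151 counts. KO livers were again above all controls, but they differed among themselves from 2.35 CPM (KO 1) to 31.7 CPM (KO 3). Its log2 fold change was 5.42 (± 0.723 SE, adjusted p of 0.000411 in edgeR). Without KO 1, the liver of lowest depth, the log2 fold change was 8.97 for Cyp3a41a, 5.28 for Cyp3a41b and 5.76 for Cyp3a44.

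Cyp3a16, described as a fetal and immature form, had 18, 13 and 20 counts in the WT Cre controls and 11, 6 and 8 in the MCS controls. Values in KO 1 to 4 were 25, 34, 65 and 55 counts. The groups did not overlap, with a log2 fold change of 1.83 (± 0.296 SE, adjusted p of 0.000438 in edgeR). The gene was nevertheless low in every liver, at 2.74 CPM at most (KO 3).

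**Figure D2:**
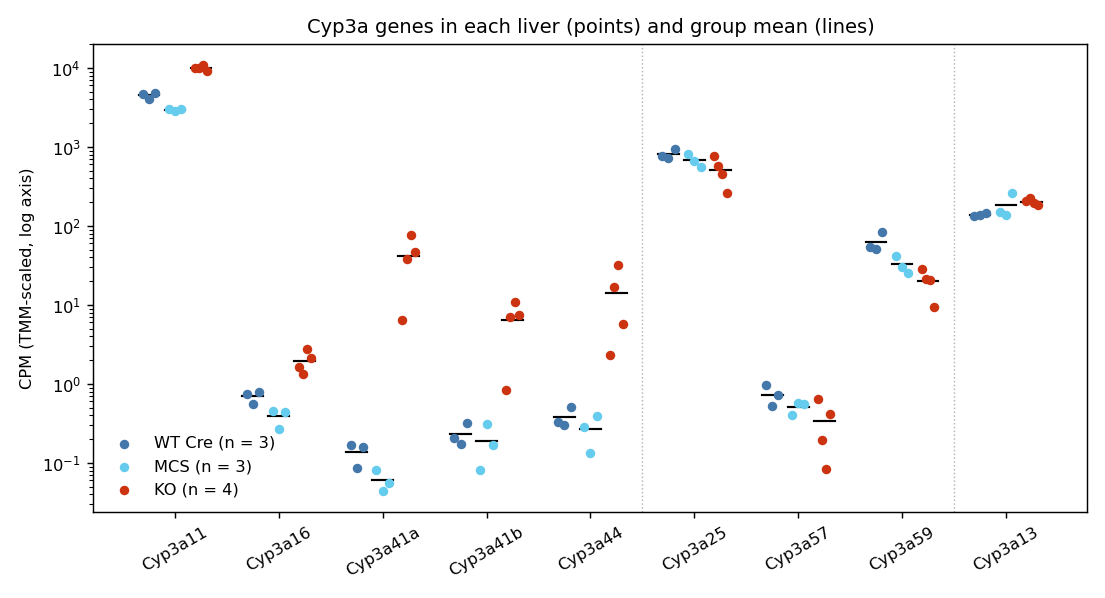
CPM of each Cyp3a gene (y axis, log scale) in 3 WT Cre, 3 MCS and 4 KO livers (points, lines for the group mean), with the first subfamily on the left, the second in the middle and Cyp3a13 on the right. Cyp3a41a, Cyp3a41b and Cyp3a44 were under 1 CPM in all controls and reached 76.5, 10.9 and 31.7 CPM in KO 3.

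Genes of the second subfamily moved the other way or were not called. Cyp3a59 had 54.4, 51.3 and 83.3 CPM in the WT Cre controls and 42.2, 30.6 and 25.4 CPM in the MCS controls. The KO livers had 28.9, 21.6, 20.4 and 9.37 CPM. KO livers were all below the WT Cre controls, but KO 1 lay among the MCS controls. The log2 fold change was -1.26 (± 0.390 SE, adjusted p of 0.0306 in edgeR). This call was lost under 8 of 21 alternatives, with adjusted p-values from 0.00185 to 0.125 over all of them. It was lost on leaving out WT Cre 1 (0.0515), WT Cre 2 (0.0514), KO 2 (0.0662), KO 3 (0.0704) or KO 4 (0.0727).

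Cyp3a25, the second most abundant member, had 769, 734 and 952 CPM in the WT Cre controls and 825, 660 and 564 CPM in the MCS controls. In KO 1 to 4 there were 772, 571, 457 and 260 CPM. KO 1 lay inside the control range, KO 2 just above its lower end, and KO 3 and KO 4 below it. The log2 fold change of -0.54 (± 0.249 SE, adjusted p of 0.11 in edgeR) did not pass. Without KO 1 it was -0.81 and passed (edgeR adjusted p of 0.0171).

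Cyp3a57 had 10 to 23 counts in the controls and 10, 5, 2 and 11 in KO 1 to 4, so that groups overlapped. Its log2 fold change of -0.95 (± 0.439 SE, adjusted p of 0.108 in edgeR) did not pass, and without KO 1 it was -1.38 (edgeR adjusted p of 0.0234). Leaving out KO 1 therefore raised the number of genes called lower from 1 to 3.

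Cyp3a13, which lies apart from the cluster, had 133, 138 and 144 CPM in the WT Cre controls and 149, 139 and 258 CPM in the MCS controls. For KO 1 to 4 the values were 207, 224, 198 and 183 CPM. All KO livers were above 5 of the 6 controls, and MCS 3 was above all KO livers. The log2 fold change of 0.34 (± 0.174 SE, adjusted p of 0.146 in edgeR) did not pass. Without MCS 3 it was 0.53 (± 0.093 SE, adjusted p of 0.00104 in edgeR). MCS 3 also had the highest levels of the acute phase genes Saa1 (1706 CPM, against 17.4 to 58.3 CPM in the other controls) and Lcn2 (91.7 CPM, against 1.29 to 4.73 CPM). Their part in the Cyp3a13 value was not tested.

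Each kind of control was then compared with KO by itself, since wildtype livers received the same virus as KO and MCS livers carried the same alleles. These comparisons share the KO livers. Against the WT Cre controls, 6 members were called higher (15.3% of all genes) and 1 lower (13.1%). Against the MCS controls, 5 were called higher (17.3%) and 0 lower (14.8%). Cyp3a11 had log2 fold changes of 1.15 (± 0.126 SE, adjusted p of 7.74e-05 in edgeR) and 1.75 (± 0.129 SE, adjusted p of 3.6e-06 in edgeR). Cyp3a41a, Cyp3a41b, Cyp3a44 and Cyp3a16 passed against both, from 1.47 (Cyp3a16) to 8.19 (Cyp3a41a) against WT Cre, and from 2.33 to 9.29 against MCS. With limma voom, Cyp3a41a against MCS missed the threshold (8.59, adjusted p of 0.0568).

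Calls of Cyp3a59 and Cyp3a13 depended on the control, and Cyp3a25 and Cyp3a57 were called against neither. Cyp3a59 had -1.66 (± 0.342 SE, adjusted p of 0.00671 in edgeR) against WT Cre and -0.71 (± 0.343 SE, adjusted p of 0.145 in edgeR) against MCS. Cyp3a25 had -0.67 (edgeR adjusted p of 0.118) and -0.41 (0.329), and Cyp3a57 had -1.18 (0.0883) and -0.67 (0.35). Cyp3a13 had 0.55 (± 0.186 SE, adjusted p of 0.0423 in edgeR) against WT Cre and 0.16 (± 0.184 SE, adjusted p of 0.556 in edgeR) against MCS. The first of these values of Cyp3a13 lost its call on leaving out any 1 of WT Cre 1 to 3 or KO 1 to 3, with adjusted p-values of 0.0609 to 0.126. Against MCS, Cyp3a13 passed without MCS 3 (0.49, adjusted p of 0.0104 in edgeR).

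The difference between the 2 kinds of control was also tested. Of the 9 members, 0 were called by edgeR between WT Cre and MCS (208 of all genes, 0.927%), and 3 had an unadjusted p under 0.05. Cyp3a11 was nearest to the threshold, at 0.61 higher in WT Cre (± 0.131 SE, adjusted p of 0.0546 in edgeR). Over 20 alternatives its adjusted p ran from 9.03e-06 to 0.245, and it passed in 10. DESeq2 called 1 member, Cyp3a11 (adjusted p of 9.03e-06), and limma on log2(FPKM + 1) called 2, Cyp3a11 (0.83, adjusted p of 0.0115) and Cyp3a16 (0.88, adjusted p of 0.0309). The other members with an unadjusted p under 0.05 were Cyp3a59 (0.94, adjusted p of 0.392 in edgeR) and Cyp3a16 (0.86, adjusted p of 0.439 in edgeR).

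**Figure D3:**
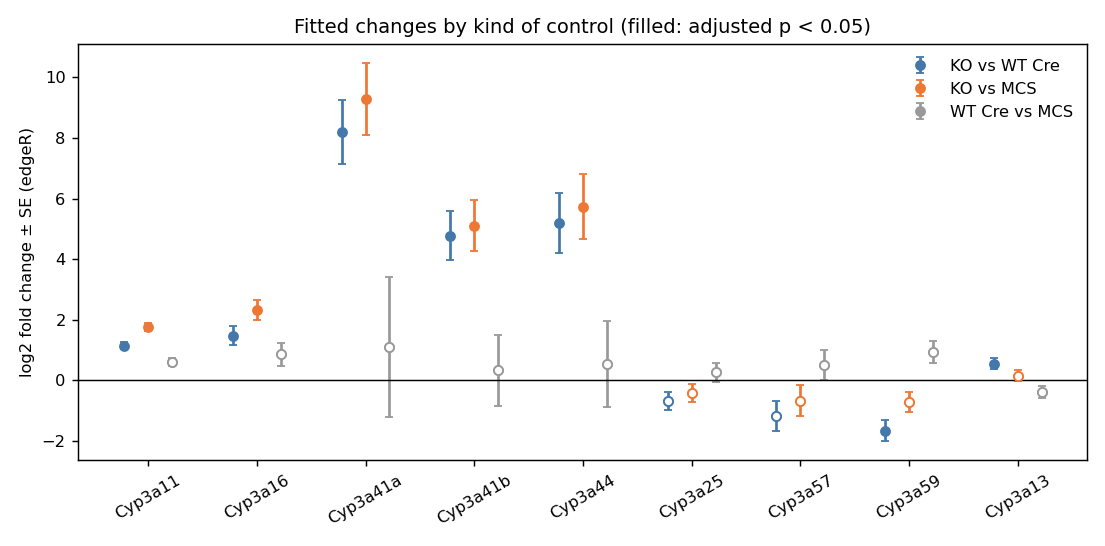
Log2 fold change with SE (y axis, edgeR fit of 3 groups) of each Cyp3a gene (x axis) for KO against WT Cre, KO against MCS and WT Cre against MCS; filled points passed an adjusted p of 0.05. The first subfamily was filled against both controls, and no gene was filled between the controls.

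The order of the members by level was then compared, per kilobase of transcript. In the controls Cyp3a11 led with 1596 ± 383 CPM per kb (SD, n = 6), before Cyp3a25 (375 ± 67.1), Cyp3a13 (54.2 ± 16.3) and Cyp3a59 (24.0 ± 10.4). These 4 did not overlap with their neighbours in the order. The other 5 had means of 0.0481 (Cyp3a41a) to 0.315 (Cyp3a16) CPM per kb, and each overlapped with the next. In KO, Cyp3a11 stood at 4267 ± 303 CPM per kb (SD, n = 4), Cyp3a25 at 257 ± 107 and Cyp3a13 at 68.7 ± 5.75. Cyp3a41a came next with 20.4 ± 14.0 CPM per kb, and its range overlapped with that of Cyp3a59 (10.1 ± 4.04). By counts, Cyp3a41a, last in the controls, thus stood behind these 3 in KO. By deposited FPKM it was not last in the controls, with 7.26 to 21.2 against 1.55 to 3.83 for Cyp3a57. On that scale the KO order differed too. Mean FPKM in KO was 212 for Cyp3a25, 188 for Cyp3a41a (47.35 to 331.5), 156 for Cyp3a41b (34.51 to 282.9) and 57.35 for Cyp3a13 (52.77 to 62.97). By counts, Cyp3a44, Cyp3a41b and Cyp3a16 followed in KO, with means of 7.22, 3.16 and 1.13 CPM per kb, and Cyp3a57 was last at 0.17.

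Together the 9 genes took 0.452% ± 0.120 (SD, n = 6) of all counts in controls and 1.16% ± 0.0899 (SD, n = 4) in KO. The shares were 0.549%, 0.493% and 0.620% in the WT Cre controls, 0.384%, 0.336% and 0.332% in the MCS controls, and 1.14%, 1.16%, 1.28% and 1.07% in KO 1 to 4. The 95% Wilson interval of KO 1, the shallowest library, was 1.13% to 1.14%, which covers counting error only. This sum does not depend on how reads were divided among the members, though reads left uncounted for matching several places would be missing from it. KO livers were above all controls, and most of the sum was Cyp3a11.

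Cyp3a11 made up 79.2% ± 2.92 (SD, n = 6) of the family's counts in controls and 92.6% ± 1.64 (SD, n = 4) in KO. The share of Cyp3a25 was 16.2% ± 2.49 and 4.71% ± 1.82, and that of Cyp3a59 was 0.985% ± 0.240 and 0.183% ± 0.0670. The groups did not overlap in any of these 3 shares. They are parts of 1 sum, so that a higher Cyp3a11 count by itself lowers the other shares. In CPM, both Cyp3a25 and Cyp3a59 overlapped between groups. The sum of the family was thus higher in KO while the second subfamily took a smaller part of it. Cyp3a41a, at its highest, made up 0.658% of the family (KO 3).

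**Figure D4:**
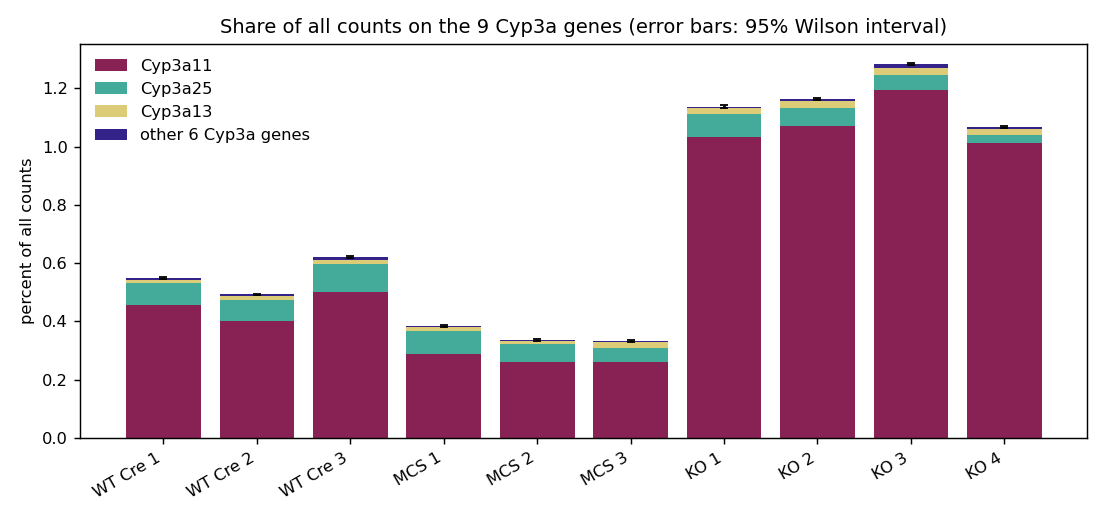
Share of all counts on the 9 Cyp3a genes (y axis, percent) in each liver (x axis), stacked by gene, with 95% Wilson intervals as error bars. KO livers stand at 1.07% to 1.28% and controls at 0.332% to 0.620%, and Cyp3a11 is the largest part in every bar.

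Counts and FPKM gave different pictures of the minor members. In the controls, Cyp3a41a had 0.159 to 0.358 counts for every 10000 counts of Cyp3a11, but its deposited FPKM was 0.783% to 1.15% of that of Cyp3a11. For Cyp3a44 the figures were 0.476 to 1.29 counts per 10000 and 0.782% to 1.15% of the FPKM. Relative to Cyp3a11, these genes thus stood far higher in FPKM than in counts in every control. The processing notes list Cufflinks, a tool that computes FPKM, but do not say that it made these values or how reads with several matches were assigned.

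In KO 2 to 4, Cyp3a41a had 38.5, 70.7 and 51.0 counts per 10000 of Cyp3a11, and FPKM of 4.32%, 6.88% and 4.34% of it. KO 1 had 6.33 counts per 10000, above all controls, but its FPKM of 1.15% was inside the control range. Cyp3a41b in KO 1 was inside the control range on both scales (0.839 counts per 10000 and 0.839% of the FPKM). Cyp3a44 had 2.32 to 29.3 counts per 10000 in KO, above all controls, and 0.689% to 1.05% of the FPKM, inside or below their range. Cyp3a16 had 1.35 to 2.53 counts per 10000 in KO and 0.952 to 1.63 in controls, which overlapped, and it shares 6.13% of its stretches of 50 bases with Cyp3a11. KO 3 (2.53) and KO 4 (2.31) were above all controls in this ratio. By FPKM, Cyp3a16 was instead lower relative to Cyp3a11 in KO, at 0.4055% to 0.539% against 0.5402% to 0.7433% in controls. Whether its counts came from Cyp3a11 reads was not tested.

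Tested on log2(FPKM + 1) with limma, 6 genes were higher in KO than in the 6 controls, the 5 of the first subfamily and Cyp3a13 (0.55, adjusted p of 0.0137). Cyp3a59 (-0.88, adjusted p of 0.0417) and Cyp3a57 (-0.66, adjusted p of 0.0124) were lower. Of all 22449 genes, 4738 were called higher and 2059 lower in that test. Values were smaller than in counts for 4 genes of the first subfamily. They were 3.39 for Cyp3a41a (± 0.496 SE, adjusted p of 0.000857), 3.49 for Cyp3a41b (± 0.527 SE, adjusted p of 0.00106), 1.51 for Cyp3a44 (± 0.288 SE, adjusted p of 0.00288) and 1.16 for Cyp3a16 (± 0.236 SE, adjusted p of 0.00425). Cyp3a11 had a larger value than in counts, 1.71 (± 0.216 SE, adjusted p of 0.00027). For the first subfamily, direction was thus shared by both deposited tables, while the size of the rise of Cyp3a41a, Cyp3a41b and Cyp3a44 was not. Both tables rest on the same libraries, so the shared direction is no independent check. By FPKM, Cyp3a44 and Cyp3a16 rose by less than Cyp3a11. Whether their FPKM came from Cyp3a11 reads was not tested.

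**Figure D5:**
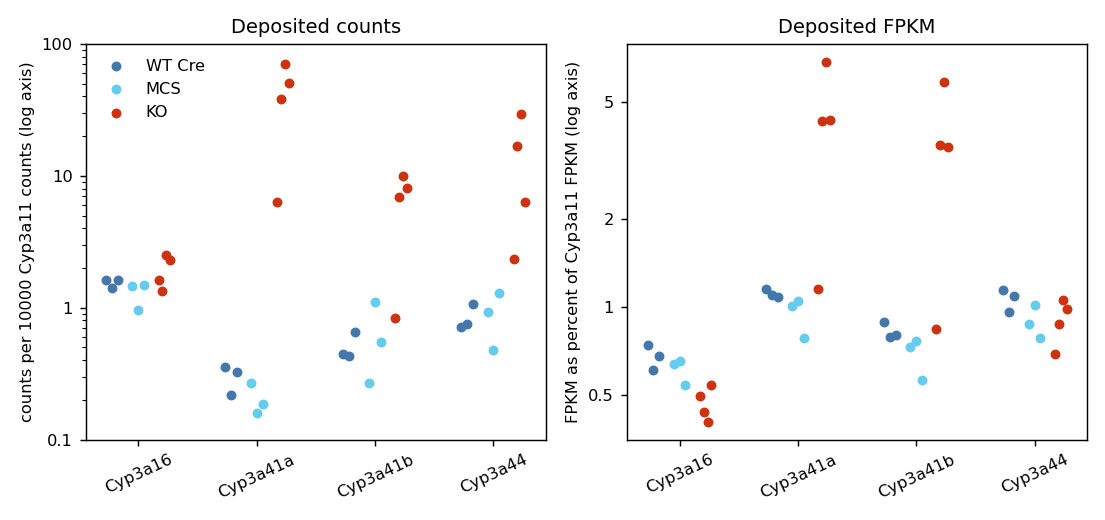
Minor members of the first subfamily relative to Cyp3a11 in each liver (points; both y axes on log scales), as counts per 10000 Cyp3a11 counts on the left and as percent of the Cyp3a11 FPKM on the right. Cyp3a41a in KO reached 70.7 counts per 10000 and 6.88% of the FPKM, and Cyp3a44 stood above the controls in counts (2.32 to 29.3 per 10000) but not in FPKM.

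The cluster also holds the pseudogene Cyp3a63-ps (minus strand, chr5:145624092-145633993), between the Cyp3a41 copies. It had 6, 9, 7, 2, 4 and 1 counts in the controls and 19, 45, 67 and 29 in KO 1 to 4. Its log2 fold change was 3.02 (± 0.405 SE, adjusted p of 0.000108 in edgeR), and relative to Cyp3a11 it had 0.185 to 0.971 counts per 10000 in controls and 1.22 to 2.61 in KO. Its FPKM was 1.55 to 5.90 in controls and 7.49 to 10.3 in KO. Relative to Cyp3a11 that was 0.167% to 0.301% and 0.169% to 0.213%, inside the control range. At 100 bases, 2.58% of the stretches of Cyp3a44 also occur in this pseudogene. Whether its counts came from reads of other members was not tested. The pseudogene Cyp3a61-ps1 had 1 count in all, in KO 4, and was not tested.

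The protein-coding genes next to the cluster were examined for comparison, 5 on each side, where 16.6% of all genes tested fell and 19.7% rose. On the side of Cyp3a57, 4 of 5 fell, namely Atp5j2 (-0.51), Zkscan14 (-0.70), Zkscan5 (-0.32) and Zfp655 (-0.81), with edgeR adjusted p-values of 0.0013 to 0.0268, and Zscan25 (-0.21) did not pass. On the side of Cyp3a59, Cdk8 rose by 0.23 (edgeR adjusted p of 0.0455) and 1700001J03Rik by 3.16 (edgeR adjusted p of 0.00181), the latter from 0.0346 to 0.372 CPM. Rnf6 (0.16) and Gm6309 (1.22) did not pass, and Gm5565 had no counts. None of the neighbours with over 1 CPM thus rose as much as any of the 5 Cyp3a genes did. Below 1 CPM, 1700001J03Rik rose by more than Cyp3a11 (1.42) and Cyp3a16 (1.83). In the controls, Cyp3a16, Cyp3a41a, Cyp3a41b and Cyp3a44 were under 1 CPM too.

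Among the other 123 Cyp genes in the table, 88 were tested against 6 controls. Of these, 27 were higher, 22 lower and 39 not called in KO, where 19.7% of all genes were higher and 16.6% lower. Their median log2 fold change was 0.027, beside -0.0030 for all genes. The cluster's own 5 higher and 1 lower stand beside these counts as a description only.

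Regulators of Cyp3a genes were considered next. Of 18, 1 was called higher and 8 lower (19.7% and 16.6% of all genes), with a median log2 fold change of -0.35. Nr1i2, which encodes PXR, had 71.9 to 105 CPM in controls and 76.9 to 86.5 CPM in KO, and did not pass (-0.08, SE 0.116, edgeR adjusted p of 0.642). Nr1i3, which encodes CAR, was at 84.9 ± 25.2 CPM in controls (SD, n = 6) and 33.6 ± 11.3 CPM in KO (SD, n = 4), and fell by 1.34 on the log2 scale (± 0.262 SE, adjusted p of 0.00237 in edgeR). Every KO liver was below every control for Nr1i3. Their common partner Rxra also fell (-0.78, SE 0.103, edgeR adjusted p of 9.63e-05), as did the glucocorticoid receptor gene Nr3c1 (-0.43, edgeR adjusted p of 0.00368).

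Factors whose letters were searched in the promoters gave mixed values against the 6 controls. Hnf4a, a nuclear receptor that maintains hepatocyte genes, did not pass (-0.55, SE 0.227, edgeR adjusted p of 0.0763). Foxa2 fell (-1.08, SE 0.217, edgeR adjusted p of 0.00235), and Foxa1 (-0.35, edgeR adjusted p of 0.207) and Foxa3 (0.71, edgeR adjusted p of 0.161) did not pass. The 1 regulator called higher was Vdr, the vitamin D receptor gene, at 0.345 CPM in KO. In KO against 6 controls, no regulator of this list with over 1 CPM was therefore called higher. Against WT Cre alone, 3 were called higher, Vdr, Foxa3 (1.29, adjusted p of 0.0168 in edgeR) and Cebpb (0.49, adjusted p of 0.0355 in edgeR). Cebpb was lower against MCS alone (-0.50, adjusted p of 0.027 in edgeR), as was Hnf4a (-0.76, adjusted p of 0.0336 in edgeR).

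Partners of CYP3A enzymes were mostly not called. Of 6 electron donors and partners 1 passed, the reductase Por, with 244 ± 61.0 CPM (SD, n = 6) in controls and 354 ± 67.4 CPM (SD, n = 4) in KO (0.54, SE 0.178, edgeR adjusted p of 0.0297). The groups overlapped, and against the MCS controls alone Por did not pass (0.34, edgeR adjusted p of 0.179). Of 9 genes of haem synthesis and breakdown, 5 fell and 1 rose, where 16.6% of all genes tested fell and 19.7% rose. Alas1, the rate-limiting enzyme of haem synthesis in the liver, was at 516 ± 237 CPM in controls (SD, n = 6) and 135 ± 31.9 CPM in KO (SD, n = 4), and fell by 1.94 on the log2 scale (± 0.306 SE, adjusted p of 0.000643 in edgeR). Cpox, a later enzyme of that pathway, fell too (-0.84, edgeR adjusted p of 0.000647), and Hmox1, which degrades haem, rose (1.10, edgeR adjusted p of 0.031). Hmox1 overlapped between groups and did not pass against MCS alone (0.91, adjusted p of 0.136 in edgeR).

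Other targets of PXR and CAR moved in both directions. Of 18, 8 rose, 5 fell and 5 were not called, with a median log2 fold change of 0.69. Over all genes tested, 19.7% rose and 16.6% fell. Against WT Cre alone 9 were higher and 6 lower (median 0.36), and against MCS alone 9 were higher and 4 lower (median 0.50). The controls themselves differed in this list. Of the 18, 4 were called higher in WT Cre than in MCS, where 0.927% of all genes were called in either direction. Cyp2b10, the classic CAR target, had 7.59 to 36.8 CPM in controls and 206, 172, 167 and 285 CPM in KO 1 to 4. It rose by 3.72 (± 0.476 SE, adjusted p of 0.000351 in edgeR). Papss2, which makes the sulfate donor for conjugation, rose by 0.76 (edgeR adjusted p of 0.000448). In contrast Cyp2c29 (-1.36, edgeR adjusted p of 0.00489), the carboxylesterase Ces2a (-0.82, edgeR adjusted p of 0.000833) and the bilirubin-conjugating enzyme Ugt1a1 (-0.79, edgeR adjusted p of 0.000385) fell. The largest fall in this list was that of Abcc3, with means of 314 CPM in controls and 29.7 CPM in KO. Its log2 fold change was -3.40 (± 0.195 SE, adjusted p of 1.46e-07 in edgeR), and the groups did not overlap. Cyp2b10, Cyp2c29, Ces2a and Ugt1a1 have close paralogs or shared exons, so that their counts are uncertain.

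Because several Cyp3a genes differ between the sexes, sex-biased liver genes and growth hormone signalling were described too. Of 20 female-biased genes other than Cyp3a, 12 were called higher and 1 lower (19.7% and 16.6% of all genes), with a median log2 fold change of 1.56. Cyp2b9 had 5.62 to 74.6 CPM in controls and 608, 320, 333 and 173 CPM in KO 1 to 4 (3.81, SE 0.720, edgeR adjusted p of 0.00347). KO 1, lowest in Cyp3a41a, was thus highest in Cyp2b9. In Cyp2a4, which encodes a steroid hydroxylase, KO 1 was instead lowest, with 291 CPM against 837, 1362 and 919 CPM in KO 2 to 4. Cyp2a4 rose by 4.95 against 6 controls (edgeR adjusted p of 0.0189), but its control means were 53.3 CPM in WT Cre and 1.75 CPM in MCS. It rose by 4.00 against WT Cre alone (edgeR adjusted p of 0.00716) and by 8.92 against MCS alone (edgeR adjusted p of 0.000487). Nipal1 fell by 1.82 (edgeR adjusted p of 0.01). Of 20 male-biased genes, 5 were higher and 6 lower (19.7% and 16.6% of all genes), with a median of -0.44. This list had 7 higher and 4 lower against WT Cre (15.3% and 13.1%). Against MCS it had 3 higher and 9 lower (17.3% and 14.8%). Mup3, a major urinary protein gene, fell (-3.22, edgeR adjusted p of 9.6e-06), as did Nudt7 (-0.74, edgeR adjusted p of 0.0451), while Cyp2d9 (0.82, edgeR adjusted p of 0.0162) and the glutathione transferase Gstp1 (0.79, edgeR adjusted p of 0.000759) rose. Nudt7 did not pass against WT Cre alone (-0.43, adjusted p of 0.262 in edgeR), nor did Cyp2d9 against MCS alone (0.45, adjusted p of 0.0559 in edgeR). Cyp2d9 was itself lower in WT Cre than in MCS (-0.87, adjusted p of 0.0421 in edgeR).

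Of 10 genes of growth hormone signalling, 2 were higher and 3 lower, where 19.7% and 16.6% of all genes tested were. Ghr, the receptor, fell (-0.82, SE 0.181, edgeR adjusted p of 0.00331), and so did Igf1 (-0.88, SE 0.145, edgeR adjusted p of 0.000509), the growth factor induced by the hormone. Jak2, the kinase of the receptor, rose by 0.35 (adjusted p of 0.0277 in edgeR). Stat5b, the main transducer in hepatocytes, fell by 0.31 (edgeR adjusted p of 0.0385). For both Jak2 and Stat5b the groups overlapped, and neither passed against WT Cre alone (adjusted p of 0.0801 and 0.072 in edgeR) or MCS alone (0.0705 and 0.104). Cux2, a repressor expressed in female liver, had 0.204 to 1.15 CPM in controls and 20.5, 22.4, 30.4 and 18.2 CPM in KO 1 to 4. It rose by 5.41 (± 0.335 SE, adjusted p of 1.12e-06 in edgeR). Bcl6, which represses female-biased genes in males, did not pass (-0.37, edgeR adjusted p of 0.501).

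Further lists were summarized by counts, beside 19.7% higher and 16.6% lower over all genes tested against 6 controls. Of 14 pericentral genes, expressed around the central vein where Cyp3a11 is also high, 1 was called higher (Rhbg, 1.55) and 7 lower, with Cyp2e1 (-1.54, edgeR adjusted p of 6.73e-05) and Glul (-1.37, edgeR adjusted p of 8.14e-05) among these. Of 19 acute phase genes, 2 were higher (Hpx, 1.31, and Saa3, 4.08) and 6 lower, including Fga (-1.70) and Fgb (-1.73). The median of this list was -0.85 against 6 controls, 0.23 against WT Cre (3 higher, 4 lower) and -1.13 against MCS (2 higher, 8 lower). Cyp3a11 thus rose in livers where most called pericentral genes fell.

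Summed marker RNA of several cell types differed between KO and controls. Over all genes tested, 19.7% were higher and 16.6% lower against 6 controls. Hepatocyte markers were present in all, and 15 of the 16 listed were found. They summed to 121270 to 168010 CPM in controls and 90251 to 106600 CPM in KO, with 11 called lower. Against WT Cre alone 5 were called lower (13.1% of all genes), and against MCS alone 12 (14.8%). Most of this sum was Alb, with means of 96921 CPM in controls and 69199 CPM in KO. Kupffer cell markers summed to 248 to 468 CPM in controls and 579 to 1257 CPM in KO (10 of 10 higher). Stellate cell markers summed to 203 to 265 and 502 to 820 CPM (9 of 10 higher), and lymphoid markers to 11.1 to 15.4 and 22.1 to 61.8 CPM (7 of 10 higher). Endothelial markers summed to 272 to 336 and 301 to 518 CPM (3 of 10 higher). Cholangiocyte markers summed to 51.4 to 82.4 and 74.1 to 93.0 CPM (2 of 9 tested higher). No listed marker was at 0 in all livers of a group. KO 1 had the lowest sums of KO for Kupffer, stellate and lymphoid markers (579, 502 and 22.1 CPM) and the highest for hepatocyte markers (106600 CPM). KO 4 had the lowest hepatocyte sum (90251 CPM). Among KO livers it was also lowest in CPM of Cyp3a11, Cyp3a13, Cyp3a25 and Cyp3a59, but not of the other members. The part of cell content in the Cyp3a values was not tested.

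Genes whose pattern over the 10 livers was most like that of a member were listed by Pearson's correlation of log2(CPM + 1), among 13202 genes with a mean of at least 1 CPM. For Cyp3a11 they were Kmt5a (r = 0.994), Ano10 (0.990) and Ap2a2 (0.989). For Cyp3a41a they were Tcfl5 (r = 0.997), Adamtsl5 (0.995) and Bspry (0.995), which rose by 7.94, 3.58 and 6.17 on the log2 scale. The Cyp3a25 pattern was nearest to Arhgef19 (r = 0.975), Nfu1 (0.973) and Map2k5 (0.969). For Cyp3a13 they were the acute phase gene Lcn2 (r = 0.961), Zkscan1 (0.954) and Nfkbiz (0.946). All rest on the same 10 libraries, in which KO stands apart from controls for many genes, so that high values are common.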

How the data were processed

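Poly(A) RNA of whole livers from 10 male mice (4 KO, 3 WT Cre, 3 MCS) was measured. The authors trimmed reads, aligned them with STAR to mm10 and deposited whole-number counts for 55421 genes in 10 columns, with no normalization. HOMER is named for the counting in the methods, whereas the submitters' processing notes list STAR, HTSeq and Cufflinks. The authors also deposited FPKM values, and no source used here says which of these tools made them. Blank FPKM cells were read as 0, and no member had one. Libraries were made with a directional kit, and strand and multiple-match settings of the counting are not given in the sources used here. KO columns were matched by replicate number and control columns by library number, on which every value of a single control rests.

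Genes with at least 10 summed counts (22449) were fitted with edgeR 4.0.16 (R 4.3.3) by the quasi-likelihood F test with TMM scaling and robust dispersion, two-sided, with Benjamini-Hochberg adjustment over all of them. KO against 6 controls was a fit of 2 groups, and the other comparisons came from 1 fit of 3 groups. SE was obtained as the log2 fold change over the root of its F value. A gene was called at an adjusted p under 0.05. CPM per kb used the length of the longest coding transcript of GENCODE M21 (mm10), which also gave positions, shared stretches and coding identity. The procedure was tested on simulated data. Alternatives were DESeq2 1.42.0, limma 3.58.1 (voom, and FPKM with pseudocounts of 1 and 0.1), other scaling and filters, a replicate block, added Cyp3a41 counts and each liver left out. The labels do not say whether the livers differ in batch, and replicates were single livers that did not repeat a library. Total counts of 14998426 to 26096141 set the precision, so that a gene at 3 counts or fewer in a library was treated as at the floor, and depth in KO 1 was the lowest.

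Named genes were all Cyp3a members and pseudogenes, H3f3a and H3f3b, the 5 coding neighbours on each side, the 3 genes most like each of 4 members, and, for each list, the 2 with the highest mean count among those called higher and lower, with further regulators, partners, targets and growth hormone genes whose role is described. Saa1, Cebpb and Abcc3 were named after their values were seen. The members and lists were chosen with earlier results of these data known.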

Additional observations from a re-analysis of the deposited data

How the results depend on the processing

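In KO against 6 controls the count of Cyp3a genes called higher stayed at 4 to 6 under every alternative. It was 4 only where Cyp3a41a and Cyp3a41b were added into 1 feature, and 5 or 6 elsewhere. The count called lower, 1 with TMM, was 0 with library size only, 0 with no filter on low counts and 2 on either log2(FPKM) scale, and it ran from 0 to 3 when 1 liver was left out. Against WT Cre it was 2 with limma voom and on either FPKM scale, and 1 to 3 with 1 liver left out. Against MCS it was 1 on either FPKM scale. Between WT Cre and MCS, the 0 genes called higher became 1 with DESeq2, limma voom, library size only, filterByExpr or no filter, 2 on either FPKM scale, and 0 to 1 with 1 liver left out. Of the log2 fold changes, 2 reversed, neither of them called: Cyp3a13 in KO against MCS (-0.0039 without MCS 2, up to 0.49 without MCS 3) and Cyp3a41b between the controls (-0.068 without MCS 1, up to 0.95 without MCS 2 when 1 liver was left out, and 1.10 on the log2(FPKM + 0.1) scale). The 725 values of single members under alternatives share most of their livers and are not independent. Of these values, 680 kept direction and side of the threshold, 15 lost the call and 28 gained it. Cyp3a59 against 6 controls made up 8 of the lost calls, and Cyp3a11 between the controls 10 of the gained. The causes were not tested. The family's share in KO was 1.33% without Alb and mitochondrial genes and 0.533% in controls. With library size only, the median over all genes shifted from -0.0030 to 0.17 against 6 controls (0.13 against WT Cre, 0.25 against MCS), and 5635 genes were called higher and 2172 lower, against 4429 and 3726 with TMM.

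The replicate numbers do not pair the livers. Over 9 pairs with the same number, deviations from the group means correlated at -0.039 to 0.11, with 1 pair over 0.1. With the replicate number as a block, 5 genes were called higher and 0 lower against 6 controls, Cyp3a59 having -1.02 (adjusted p of 0.125), and 1 was higher between WT Cre and MCS (Cyp3a11, adjusted p of 0.0401). Counts at or under 3 in a library limit Cyp3a41a in MCS, where a fold is a ratio of few counts.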
